A study of Homo sapiens with 95 samples.

Results

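Airway secretory and antimicrobial genes were followed as a set of 10 named genes among the 27978 genes of the count files: LCN2, SLPI, PI3, WFDC2, MUC1, MUC4, MUC16, MUC20, CEACAM6 and AQP3. The rule names the members, as products of the airway surface, and uses no measured value, but the set was drawn up with earlier results of these data known. All 10 were listed in every file. The cells were AALE, an immortalized human bronchial epithelial line, profiled by sparse full length sequencing (SFL), a multiplexed RNA-seq method in which many barcoded libraries share a sequencing run. The 95 samples covered 8 genotypes crossed with 4 treatments, with 3 samples in 31 of the 32 combinations and 2 samples for FGFR1 with CSC.

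The CRISPR arm held cells with a FAT1 knockout, cells with a CDKN2A knockout, and GFP control cells, which received the pSpCas9-EGFP plasmid PX458 with no sgRNA. The overexpression arm held cells overexpressing NRF2 (the gene NFE2L2), FGFR1, NRG1 or PIK3CA, and HcRed control cells that carried a vector with the HcRed reporter alone. Every line was treated with DMSO, the vehicle, or with 24 µg/ml cigarette smoke condensate (CSC), 173 µM benzo[a]pyrene (BaP) or 490 µM of the nitrosamine NNK, after the cells had reached confluency in 24-well plates. The GFP control was shared by both knockout comparisons, the HcRed control by all 4 overexpression comparisons, and the DMSO samples by all 3 carcinogen comparisons, so comparisons with a shared control are not independent of each other. The labels name 1 line per genotype, and the sources used here do not state whether the lines were clones. The study describes the samples of a combination as biological replicates. The sample labels number them and do not name the cultures they came from, so p-values measure the spread between these samples.

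The airway lining is kept clear by a gel of mucins and by small secreted proteins that kill microbes or hold proteases in check. SLPI and PI3 (elafin) are protease inhibitors built on the WAP (whey acidic protein) fold that restrain neutrophil elastase, and WFDC2 is a further secreted protein with WAP domains. LCN2 is a lipocalin that starves bacteria of iron by binding their siderophores. MUC1, MUC4, MUC16 and MUC20 are membrane-anchored mucins of the epithelial surface, CEACAM6 is a cell-surface adhesion glycoprotein of the carcinoembryonic antigen family, and AQP3 is a water and glycerol channel of basal epithelial cells.

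By the GENCODE annotation of GRCh37, the build that matches hg19 used for the counts, SLPI (chr20:43880880-43883205), PI3 (chr20:43803543-43805185) and WFDC2 (chr20:44098393-44110172) lay in the same stretch of chromosome 20. MUC4 (chr3:195473636-195538844) and MUC20 (chr3:195447755-195467994) were neighbours on chromosome 3. LCN2 (chr9:130911350-130915732) and AQP3 (chr9:33441154-33447594) lay far apart on chromosome 9, MUC16 (chr19:8959520-9121066) and CEACAM6 (chr19:42254885-42276116) far apart on chromosome 19, and MUC1 at chr1:155158300-155162707. The exons of MUC20 overlap those of the same-strand transcript MUC20-OT1. The count files do not list MUC20-OT1, so its reads could be counted as MUC20. Mucin repeats resemble each other, so reads of the mucins could also be split or lost in counting.

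The libraries held between 287446 and 2116383 counted reads, with a median of 934235, so that 3 reads corresponded to between 1.42 and 10.4 CPM (a gene's counts scaled to a common library total). At this depth the members were low genes: AQP3 had 2010 reads over the 95 samples, SLPI 1331, MUC1 1245, PI3 530, MUC16 331, MUC20 215, WFDC2 213, LCN2 118, MUC4 59 and CEACAM6 16. Of the 10 members, 8 passed the filter of a mean count above 1 over all samples and MUC4 and CEACAM6 did not, and 3 members (AQP3, SLPI and MUC1) had a mean count of at least 10. The 14384 genes that passed had a median of 29.7 in mean CPM. Levels are given below as CPM scaled by TMM library factors, and differences as log2 fold changes of limma-voom with their standard error (SE). Adjusted p is the Benjamini-Hochberg value over all tested genes, called at 0.05.

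The targeted gene went the way its label says in every line: FAT1, CDKN2A, NFE2L2, FGFR1, NRG1 and PIK3CA each had line and control ranges of log2 CPM that did not overlap. The samples are labelled as bronchial epithelial cells, with no cell type within that epithelium. Of the basal cell markers, 10 of 10 had a mean count of at least 10, summing to between 4750 and 12900 CPM. Among 20 secretory cell markers, 16 had a read and 3 reached a mean count of 10, these being the simple keratins KRT7, KRT8 and KRT18. AGR2 had 435 reads over the 95 samples, MUC5B 96, FCGBP 59, SPDEF 7, MUC5AC 3 and SCGB1A1 2, and SCGB3A2, CYP2F1, TFF1 and BPIFA1 had 0. The members are therefore described here in cells with basal markers. In bulk samples such as these, fewer cells of a type and less RNA per cell cannot be told apart.

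Compared per kilobase of exon, as means over all 95 samples, SLPI was the highest member, with a mean of 25.5 CPM per kb, followed by PI3 at 10.8, AQP3 at 8.12 and MUC1 at 5.91. WFDC2 stood at 1.67 CPM per kb, LCN2 at 0.806 and MUC20 at 0.341. MUC16 at 0.0849, CEACAM6 at 0.0634 and MUC4 at 0.0333 CPM per kb were the lowest. The order was not tested and need not hold within a line, since the HcRed and NRF2 lines held most of the SLPI and PI3 reads. AQP3 and MUC1 had reads in all 95 samples and SLPI in 91, whereas MUC4 had a read in 42 and CEACAM6 in 14.

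Against DMSO over all genotypes, CSC changed 3 of the 8 tested members, where 55.1% of all tested genes were called. BaP changed 4, with 51.0% of all genes called, and NNK changed 2, with 51.8% of all genes called. With 8 members, these shares are at or under the background and are no result about the set. MUC1 and AQP3 were higher with all 3 carcinogens, MUC16 was lower with CSC and BaP, and LCN2 was higher with BaP. A correction for the GC content and exon length of genes ended the calls of MUC1 with CSC and BaP, of AQP3 with all 3 carcinogens and of LCN2 with BaP, with values given beside MUC1 and AQP3. Before that correction, the median log2 difference of the 8 members was 0.34 with CSC, 0.18 with BaP and 0.18 with NNK, against medians of 0, 0.01 and 0 over all genes. After it, the member values lay on both sides of 0, from -0.82 to 0.22 with CSC, -1.54 to 0.63 with BaP and -0.31 to 0.63 with NNK. A shift of the set was not tested.

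Within single lines, with 3 samples against 3 (2 for FGFR1 with CSC), the carcinogens gave 12 calls of members in 24 comparisons. With BaP the calls were 2 of 8 tested members in CDKN2A, 1 of 6 in FAT1 and 2 of 6 in GFP, where 18.6%, 15.1% and 11.0% of all genes were called. BaP gave 0 calls in FGFR1, HcRed, NRF2, NRG1 and PIK3CA, where 5.43%, 4.72%, 8.51%, 7.81% and 10.9% were called. With CSC the calls were 2 of 7 in HcRed and 1 of 8 in PIK3CA, where 23.8% and 22.6% were called, and 0 in CDKN2A, FAT1, FGFR1, GFP, NRF2 and NRG1, where 11.2%, 12.7%, 11.7%, 25.0%, 9.10% and 13.9% were called. With NNK the calls were 1 each in CDKN2A, FGFR1, NRF2 and NRG1, where 5.42%, 7.84%, 6.90% and 6.43% were called, and 0 in FAT1, GFP, HcRed and PIK3CA, where 10.2%, 18.2%, 16.4% and 9.74% were called.

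Between genotypes, the counts of members called ran from 1 to 5. Against HcRed over the 4 treatments, FGFR1 changed 5 of 8 members (2 higher, 3 lower), where 13.5% of all genes were called. NRG1 lowered 5 of 8, where 10.8% of all genes were called, and PIK3CA lowered 5 of 8, where 27.8% were called. NRF2 changed AQP3 alone among 8 tested members, where 21.6% of all genes were called. In the CRISPR arm, FAT1 against GFP changed 2 of 6 tested members, with 48.9% of all genes called, and CDKN2A against GFP changed 3 of 8, with 57.6% called. The 2 control lines themselves differed: GFP against HcRed changed 3 of 7 tested members, all lower in GFP, with 45.0% of all genes called.

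Within single treatments, FGFR1 lowered 2 of 8 members with DMSO, CSC, BaP and NNK, and raised 1 with NNK, where 1.86%, 2.83%, 1.42% and 2.47% of all genes were called. NRG1 lowered 2, 2, 3 and 3 members, where 2.04%, 2.31%, 1.52% and 1.85% were called, and PIK3CA lowered 3, 4, 2 and 3, where 8.60%, 10.3%, 7.12% and 6.62% were called. NRF2 gave 0 calls with DMSO, CSC and BaP and 1 with NNK, where 7.16%, 4.87%, 7.25% and 3.91% were called. FAT1 gave 0 calls in each treatment, where 26.3%, 25.3%, 21.4% and 17.2% were called, and CDKN2A gave 2, 0, 0 and 3, where 37.2%, 32.3%, 32.1% and 28.1% were called. GFP against HcRed gave 2, 3, 2 and 2 calls, where 17.7%, 22.0%, 15.0% and 12.5% were called.

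**Figure D1:**
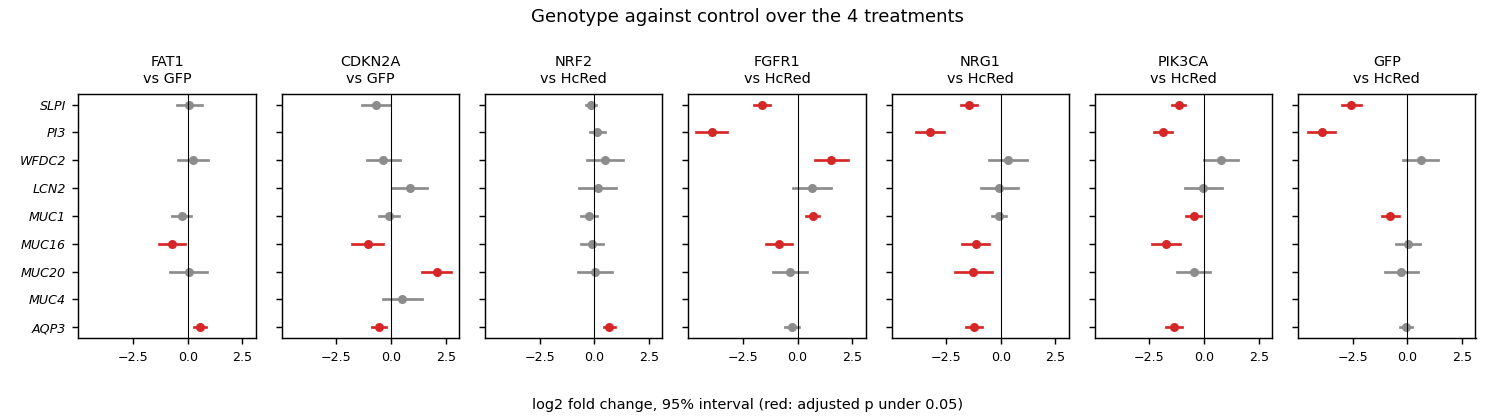
Log2 fold change (x axis) of each tested member (y axis) between a genotype and its control over the 4 treatments, with 95% intervals from limma-voom; red marks an adjusted p under 0.05. SLPI and PI3 lie left of 0 in FGFR1, NRG1 and PIK3CA against HcRed and in GFP against HcRed, and MUC20 lies at 2.09 in CDKN2A against GFP.

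SLPI set the HcRed and NRF2 lines apart from the other 6. In DMSO its level was 36.2, 23 and 32.5 CPM in the HcRed samples and 31.7, 42.9 and 29.1 CPM in the NRF2 samples. It was 5.53, 11.8 and 6 CPM in FGFR1, 13.7, 17 and 11.1 CPM in NRG1, and 15.8, 19.4 and 16 CPM in PIK3CA. The HcRed and NRF2 ranges overlapped each other and lay above all samples of the other 3 overexpression lines. In the CRISPR arm with DMSO, SLPI was at 3.87, 3.84 and 4.65 CPM in GFP, 6.86, 6.21 and 5.12 CPM in FAT1, and 4.4, 3.08 and 0 CPM in CDKN2A. The FAT1 samples overlapped those of FGFR1.

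Over the 4 treatments, SLPI ranged from 23 to 57.8 CPM in the 12 HcRed samples, with a median of 34, and from 21.2 to 42.9 CPM in the 12 NRF2 samples, with a median of 30.4. The 11 FGFR1 samples ran from 5.53 to 25.9 CPM with a median of 9.77, the 12 NRG1 samples from 5.59 to 20 with a median of 14.8, and the 12 PIK3CA samples from 5.66 to 20.9 with a median of 16. By limma-voom with Benjamini-Hochberg adjustment, SLPI was lower than in HcRed by a log2 difference of -1.62 (SE 0.18, adjusted p = 5.02e-11) in FGFR1, -1.45 (SE 0.18, adjusted p = 2e-09) in NRG1 and -1.16 (SE 0.15, adjusted p = 2.65e-09) in PIK3CA. NRF2 did not pass the test, with a difference of -0.15 and a 95% interval from -0.39 to 0.1. Within single treatments, SLPI was called lower in 4 of 4 treatments in FGFR1 (1.42% to 2.83% of all genes called), in NRG1 (1.52% to 2.31%) and in PIK3CA (6.62% to 10.3%), and in each of them no sample of the line reached the lowest HcRed sample. With DMSO, the SLPI calls in NRG1 and PIK3CA were lost with the DESeq2 Wald test (adjusted p = 0.291 and 0.204) and in the fit of all 95 samples. The NRG1 call was also lost without HcRed replicate 1 or NRG1 replicate 1, and the PIK3CA call without HcRed replicate 1, HcRed replicate 3 or PIK3CA replicate 3.

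PI3 followed the same lines with a wider span. In DMSO it stood at 13.8, 20.2 and 11.8 CPM in HcRed and at 24.6, 23.3 and 25.6 CPM in NRF2. The other overexpression lines were far below, with 0, 2.94 and 1 CPM in FGFR1, 0.76, 2.43 and 0 CPM in NRG1, and 2.97, 4.85 and 4.72 CPM in PIK3CA. In counted reads, the 12 HcRed samples held 217 PI3 reads and the 12 NRF2 samples 208, against 10 in 11 FGFR1 samples, 20 in NRG1 and 60 in PIK3CA.

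The log2 difference of PI3 from HcRed over the 4 treatments was -3.92 (SE 0.36, adjusted p = 4.32e-14) in FGFR1, -3.23 (SE 0.32, adjusted p = 2.85e-12) in NRG1 and -1.9 (SE 0.21, adjusted p = 1.95e-11) in PIK3CA by limma-voom with Benjamini-Hochberg adjustment. In NRF2 it was 0.14, with a 95% interval from -0.19 to 0.47, and did not pass the test. PI3 fell in 4 of 4 treatments in FGFR1 and in NRG1, and in 3 of 4 in PIK3CA, the exception being BaP at -1.32 with an adjusted p of 0.0567. No read of PI3 was counted in either FGFR1 sample with CSC, where HcRed with CSC held 97 reads. Against a floor of 3 reads over those 2 libraries (1.04 CPM), the pooled HcRed level of 26.5 CPM with CSC was 25.6-fold higher.

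The CRISPR arm held almost no PI3. GFP had 8 reads in 12 samples, CDKN2A 7 and FAT1 0 in 12 samples. For FAT1 the limit set by 3 reads was 0.284 CPM, 2.64-fold below the pooled GFP level of 0.749 CPM. The exact Poisson 95% intervals (counting error only) ran from 0.324 to 1.48 CPM in GFP and from 0 to 0.349 CPM in FAT1, and overlapped. PI3 was not tested between these lines, since the mean count was under the filter. GFP against HcRed gave a log2 difference of -2.56 (SE 0.22, adjusted p = 2.63e-17) for SLPI and -3.92 (SE 0.32, adjusted p = 4.14e-18) for PI3, and both were called in 4 of 4 treatments (12.5% to 22.0% of all genes called). The GFP and HcRed lines differ in vector and arm, so the control plasmid, the derivation of the line and its growth cannot be told apart in that difference.

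**Figure D2:**
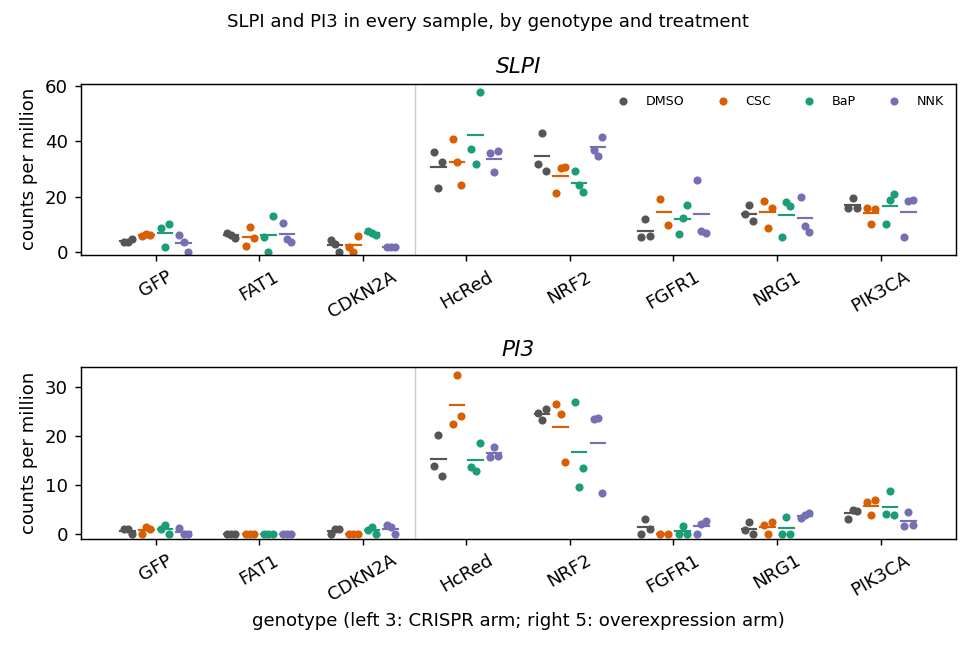
SLPI (top) and PI3 (bottom) in CPM (y axis) in each of the 95 samples, by genotype (x axis) and treatment (colour); points are samples and short lines are means of 3 samples (2 for FGFR1 with CSC). The HcRed and NRF2 samples lie between 21.2 and 57.8 CPM for SLPI and between 8.32 and 32.4 CPM for PI3, and the FAT1 samples hold no PI3 read.

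Neither SLPI nor PI3 passed the test for any carcinogen over all genotypes. The SLPI difference from DMSO was -0.01 with CSC (95% interval -0.3 to 0.28), 0.02 with BaP (-0.26 to 0.3) and 0 with NNK (-0.3 to 0.31). For PI3 the values were 0.28 with CSC (-0.11 to 0.68), -0.14 with BaP (-0.52 to 0.25) and 0 with NNK (-0.41 to 0.4). Within single genotypes 2 calls were made. PI3 rose in HcRed with CSC, from 13.8, 20.2 and 11.8 CPM to 22.4, 32.4 and 24.1 CPM, groups that did not overlap (log2 0.85, adjusted p = 0.0198 by limma-voom and Benjamini-Hochberg, with 23.8% of all genes called). It lost the call without CSC replicate 2, DMSO replicate 1 or DMSO replicate 3. SLPI rose in CDKN2A with BaP, from 8 reads in 3 samples to 18 in 3 (log2 2.01, adjusted p = 0.0276 by the same test, with 18.6% of all genes called). That difference was not called by edgeR's quasi-likelihood test.

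Across the 32 combinations, the mean log2 CPM of SLPI and PI3 had a Pearson r of 0.86 and a Spearman rho of 0.84, a description over combinations that share lines and libraries. CEACAM6, too low to test, had 8 of its 16 reads in HcRed and 6 in NRF2. Those 2 lines held 24.6% of all counted reads but 87.5% of the CEACAM6 reads, 80.2% of the PI3 reads and 53.7% of the SLPI reads. In HcRed the CEACAM6 reads were 4 with CSC and 4 with BaP, and none was counted with DMSO or NNK.

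Markers of other differentiation states differed between the same lines. The 10 squamous markers summed to between 74.9 and 117 CPM in HcRed and between 77.3 and 131 CPM in NRF2, but to between 32.9 and 82.1 CPM in the other 6 lines. Of the list, 6 of 6 tested genes fell against HcRed in NRG1, in PIK3CA and in GFP, with median log2 differences of -1.44, -1.39 and -1.63, where 10.8%, 27.8% and 45.0% of all genes were called. In FGFR1, 4 of 7 tested squamous genes fell and 0 rose, where 13.5% of all genes were called. SPRR1B, a cornified envelope precursor, was at 16.8 CPM in HcRed, 3.86 in GFP and 8.56 in NRF2, and in NRF2 it was the 1 of 8 tested squamous genes that fell, while KRT13 and TGM1, the crosslinking enzyme of the cornified envelope, rose (TGM1 at 23.3 CPM against 13).

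Of the 10 basal markers against HcRed, 7 fell and 1 rose in NRG1 (10.8% of all genes called), and 8 fell and 2 rose in PIK3CA (27.8%). In FGFR1 5 fell and 2 rose (13.5%), in NRF2 3 fell and 4 rose (21.6%), and in GFP 4 fell and 3 rose (45.0%). KRT17, a basal keratin among those that fell, was at 1690 CPM in HcRed, 775 in NRG1 and 639 in PIK3CA. The basal marker ITGB4 rose in NRG1 and PIK3CA, and NGFR rose in PIK3CA. The simple keratin KRT7 was at 204 CPM in HcRed, 627 in NRF2, 500 in FGFR1, 1050 in PIK3CA, 118 in NRG1 and 7.28 in GFP. The part of these markers in the SLPI and PI3 differences was not tested.

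WFDC2 did not follow the other WAP genes. It was called once among the genotypes, higher in FGFR1 than in HcRed over the 4 treatments (log2 1.54, SE 0.38, adjusted p = 0.00268 by limma-voom with Benjamini-Hochberg). FGFR1 held 48 reads in 11 samples, from 1.26 to 8.3 CPM with a median of 4, and HcRed 19 reads in 12 samples, from 0 to 4.14 CPM with a median of 0.431. The ranges overlapped. In DMSO the 3 FGFR1 samples had 8.3, 2.94 and 4 CPM and the HcRed samples 0.861, 0 and 0 CPM. Without the DMSO samples, or without replicate 3, the difference lost its call. The carcinogens gave no call for WFDC2, with differences of 0.4, 0.06 and -0.07 for CSC, BaP and NNK.

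LCN2 had 118 reads in all and at most 6 in a sample, and 40 of the 95 samples had none. With BaP over all genotypes it was higher than with DMSO, by 38 reads in 24 samples against 22 in 24 (log2 0.93, SE 0.31, adjusted p = 0.00774 by limma-voom with Benjamini-Hochberg). The ranges overlapped, from 0 to 5.57 CPM against 0 to 3.69 CPM. CSC gave 0.5 and NNK 0.65, neither past the test, and LCN2 was called in none of the 5 genotype comparisons over the 4 treatments in which it was tested (CDKN2A, NRF2, FGFR1, NRG1 and PIK3CA); its adjusted p was 0.0749 in CDKN2A against GFP. Without replicate 3, and after the GC content and exon length correction, the BaP difference lost its call. The highest level was in FGFR1, 25 reads in 11 samples, and the lowest in FAT1, 4 reads in 12. In PIK3CA with CSC, 7 reads stood against 0 in the 3 DMSO samples (adjusted p = 0.04 by the same test, with 22.6% of all genes called), a call that was lost when any of the 3 DMSO samples was left out.

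MUC1 was called higher with each carcinogen. With DMSO its level ran from 1.76 to 20.3 CPM over 24 samples, with a median of 9.36. With CSC the 23 samples ran from 6.1 to 28.2 CPM with a median of 11.5, with BaP the 24 samples from 5.27 to 36.1 with a median of 12.9, and with NNK the 24 samples from 2.92 to 45.3 with a median of 17.3. All these ranges overlapped. Within a line, every treated sample lay above every DMSO sample in 2 of 8 genotypes with CSC, 3 of 8 with BaP and 5 of 8 with NNK. With genotype in the model, MUC1 was higher than with DMSO by a log2 difference of 0.45 (SE 0.13, adjusted p = 0.0022) with CSC, 0.44 (SE 0.13, adjusted p = 0.00308) with BaP and 0.95 (SE 0.13, adjusted p = 1.96e-10) with NNK, by limma-voom with Benjamini-Hochberg adjustment.

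NNK differed from the other 2 carcinogens for MUC1. The level was lower with CSC than with NNK by a log2 difference of -0.5 (adjusted p = 0.00187, limma-voom with Benjamini-Hochberg), where 2 of 8 members and 23.7% of all genes were called. With BaP it was lower than with NNK by -0.51 (adjusted p = 0.00318, same test), where 2 of 8 members and 11.8% of all genes were called. CSC and BaP differed by 0.01, with a 95% interval from -0.25 to 0.27. The 3 agents were given at different doses and in different units, so these are differences between the treatments as applied.

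The NNK rise of MUC1 was largest in level in the FGFR1 line. There MUC1 went from 20.3, 17.7 and 18 CPM with DMSO to 35.4, 45 and 45.3 CPM with NNK (log2 1.15, SE 0.24, adjusted p = 0.00127, with 7.84% of all genes called). In NRG1 it went from 10.6, 12.1 and 7.74 to 24.2, 22.6 and 27.6 CPM (log2 1.26, SE 0.34, adjusted p = 0.00737, with 6.43% called), and in CDKN2A from 1.76, 6.15 and 5.41 to 13.2, 13.9 and 9.92 CPM (log2 1.54, SE 0.47, adjusted p = 0.0344, with 5.42% called), all by limma-voom with Benjamini-Hochberg adjustment. In these 3 lines every NNK sample lay above every DMSO sample, and the CDKN2A call was kept in 1 of 6 fits that left out a sample. In GFP the NNK samples were at 16.6, 5.65 and 2.92 CPM around DMSO samples of 7.73, 6.72 and 10.9, and in FAT1 at 5.36, 9.44 and 8.79 against 6.86, 8.88 and 5.12. The mean was higher with NNK in 7 of 8 genotypes, and the test of whether the NNK response differed among the 8 genotypes did not pass (moderated F = 1.41, adjusted p = 0.948 by limma-voom with Benjamini-Hochberg).

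Among the genotypes, MUC1 was higher in FGFR1 than in HcRed over the 4 treatments (log2 0.69, SE 0.15, adjusted p = 0.000447). FGFR1 samples had a median of 28.5 CPM and a range from 17.7 to 45.3, HcRed samples a median of 17.2 and a range from 8.61 to 28.2. It was lower in PIK3CA (log2 -0.48, SE 0.17, adjusted p = 0.03) and in GFP against HcRed (log2 -0.78, SE 0.2, adjusted p = 0.000633), all by limma-voom with Benjamini-Hochberg adjustment. The PIK3CA value lost its call under 5 of 13 other settings, and without replicate 1 or 2. The GFP value lost its call without the CSC samples.

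AQP3, the water channel, was the member with the most reads. With DMSO it ran from 5.32 to 45.7 CPM over 24 samples with a median of 17.3, with CSC from 9.18 to 50.4 with a median of 21.1, with BaP from 3.04 to 59.4 with a median of 25.4, and with NNK from 4.04 to 70.4 with a median of 21.8. The ranges overlapped throughout. Within genotype the log2 difference from DMSO was 0.45 (SE 0.12, adjusted p = 0.000917) with CSC, 0.48 (SE 0.12, adjusted p = 0.00054) with BaP and 0.38 (SE 0.13, adjusted p = 0.0083) with NNK by limma-voom with Benjamini-Hochberg adjustment. The mean was higher than with DMSO in 7 of 8 genotypes with CSC, in 8 of 8 with BaP and in 6 of 8 with NNK, and without the NRF2 line, or without replicate 2, the NNK difference lost its call.

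These rises of MUC1 and AQP3 depended on how gene composition was handled. After a loess correction of each sample for the GC content and exon length of its genes, the MUC1 difference was 0.09 with CSC (adjusted p = 0.655) and 0.11 with BaP (adjusted p = 0.6), and the AQP3 difference 0.14, 0.18 and 0.09 with CSC, BaP and NNK (adjusted p = 0.397, 0.269 and 0.699), by limma-voom with Benjamini-Hochberg adjustment. The MUC1 rise with NNK kept its call at 0.63 (adjusted p = 6.24e-05). The LCN2 rise with BaP was 0.63 (adjusted p = 0.12) after the correction, and the MUC16 falls kept their calls. With the correction, the number of all genes called went from 7922 to 4506 with CSC, from 7337 to 3323 with BaP and from 7455 to 2321 with NNK. The corrected fit held only genes with a known GC content and exon length (86.9% of the listed symbols). The counts before and after it thus need not cover the same genes.

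RefSeq (GRCh38.p14) held an upstream window for 7 of the 10 members. The share of G and C was 54.8% for LCN2, 67.2% for WFDC2, 60.4% for MUC4, 61.6% and 63.6% for the 2 starts of MUC16, 55.2% for CEACAM6, 66.0% for both starts of MUC1 and 73.6% for AQP3. The 250 bases upstream of the start are shown for the pair called higher with all 3 carcinogens before that correction, MUC1 (chr1:155192916-155193165, minus strand) and AQP3 (chr9:33447594-33447843, minus strand), 5′ to 3′, with matches to the GC box GGGCGG and the TATA box TATAAA in capitals.
MUC1: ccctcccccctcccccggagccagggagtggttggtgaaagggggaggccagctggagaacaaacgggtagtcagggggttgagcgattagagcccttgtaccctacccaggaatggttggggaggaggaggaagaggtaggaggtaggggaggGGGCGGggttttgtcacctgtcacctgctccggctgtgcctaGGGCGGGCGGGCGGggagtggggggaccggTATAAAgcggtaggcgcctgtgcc
AQP3: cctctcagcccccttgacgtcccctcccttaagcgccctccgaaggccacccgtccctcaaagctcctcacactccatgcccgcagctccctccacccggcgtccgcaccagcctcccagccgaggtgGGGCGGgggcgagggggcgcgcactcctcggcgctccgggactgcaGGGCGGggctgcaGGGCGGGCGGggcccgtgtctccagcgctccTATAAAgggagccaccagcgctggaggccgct
Each window held 4 GC box matches, counted on both strands and with overlaps, and 1 TATA box match, which ended 18 bases before the start shown for MUC1 (24 before its other start) and 26 bases before it in AQP3. Of 35116 promoter windows of the same length, 42.6% held a GC box and 10.7% the TATA letters. Neither window held the letters of the xenobiotic response element core (GCGTG, in 32.2% of all windows), the antioxidant response element core (TGACNNNGC, in 10.9%), an AP-1 site (TGANTCA, in 6.57%), the E-box CACGTG (in 6.34%) or the forkhead site GTAAACA (in 2.98%). No match says only that these letters are not in this window.

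AQP3 also separated the lines. In the overexpression arm it was highest in NRF2, at 29.7, 29.4 and 29.1 CPM with DMSO against 21.5, 21.6 and 12.8 CPM in HcRed, and at 70.4, 51.4 and 48.7 CPM with NNK against 25.6, 34.2 and 20.4 CPM. Over the 4 treatments NRF2 was higher by a log2 difference of 0.69 (SE 0.13, adjusted p = 2.1e-05). The NRG1 and PIK3CA lines had the lowest levels, from 3.71 to 16.3 CPM with a median of 11 and from 3.04 to 18.3 CPM with a median of 10.6, against 12.8 to 42.2 CPM with a median of 21.6 in HcRed. They fell by -1.23 (SE 0.19, adjusted p = 1.45e-06) and -1.38 (SE 0.19, adjusted p = 1.95e-08) on the log2 scale. In the same lines 7 and 8 of the 10 basal markers fell and 1 and 2 rose, where 10.8% and 27.8% of all genes were called. The part of these markers in the AQP3 difference was not tested. In the CRISPR arm, AQP3 was higher in FAT1 than in GFP (log2 0.54, SE 0.14, adjusted p = 0.000839) and lower in CDKN2A (log2 -0.57, SE 0.16, adjusted p = 0.00218), all by limma-voom with Benjamini-Hochberg adjustment.

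**Figure D3:**
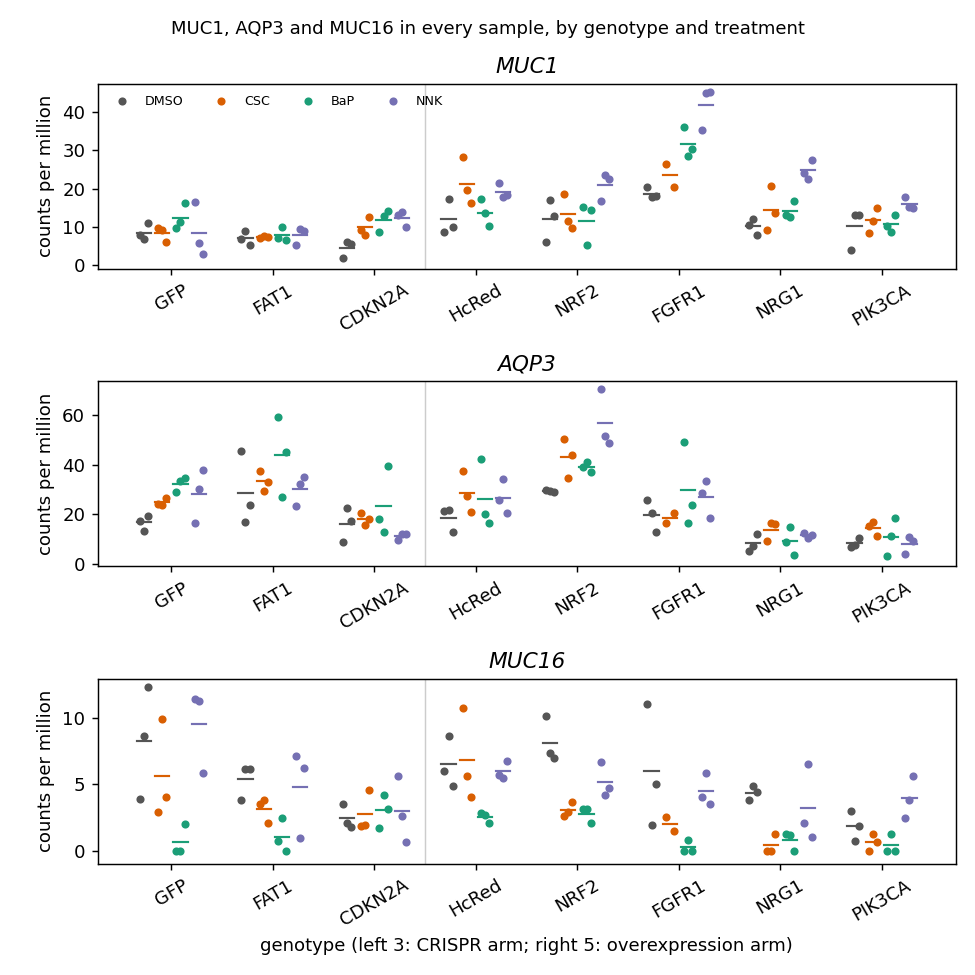
MUC1, AQP3 and MUC16 in CPM (y axis) in each of the 95 samples, by genotype (x axis) and treatment (colour); points are samples and short lines are means of 3 samples (2 for FGFR1 with CSC). MUC1 with NNK reaches 45.3 CPM in FGFR1, AQP3 is lowest in NRG1 and PIK3CA, and MUC16 with BaP reaches at most 4.24 CPM.

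MUC16, the CA-125 mucin, fell with CSC and BaP. With DMSO it had 133 reads in 24 samples, from 0.692 to 12.4 CPM with a median of 4.89. With BaP it had 33 reads in 24 samples, from 0 to 4.24 CPM with a median of 1.25, with CSC 76 reads in 23 samples with a median of 2.65, and with NNK 89 reads in 24 samples with a median of 5.56. By limma-voom with Benjamini-Hochberg adjustment the log2 difference of MUC16 from DMSO was -1.53 with BaP (SE 0.25, adjusted p = 4.64e-08) and -0.71 with CSC (SE 0.22, adjusted p = 0.00443), while NNK gave -0.15 with a 95% interval from -0.55 to 0.26. The 3 carcinogens also differed among themselves: BaP was below CSC (CSC minus BaP 0.83, adjusted p = 0.00709, where 1 of 8 members and 16.5% of all genes were called), and below NNK by -1.39 (adjusted p = 9.46e-07). CSC was below NNK by -0.56 (adjusted p = 0.0469, same test), a difference that kept its call under 4 of 15 other settings. The call between CSC and BaP was lost without replicate 1 and without the GFP line.

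The MUC16 mean was lower with BaP in 7 of 8 genotypes, and in 6 of 8 no BaP sample reached the lowest DMSO sample. In GFP the level went from 3.87, 8.64 and 12.4 CPM with DMSO to 0, 0 and 2.03 CPM with BaP (1 read against 29, log2 -3, adjusted p = 0.0147 by limma-voom with Benjamini-Hochberg, with 11.0% of all genes called). In HcRed it went from 6.03, 8.64 and 4.92 to 2.86, 2.7 and 2.06 CPM. In CDKN2A the ranges overlapped, with 3.52, 2.05 and 1.8 CPM with DMSO and 1.71, 4.24 and 3.17 CPM with BaP. The libraries with each carcinogen were shallower than those with DMSO. Median counted reads were 1051107.5 with DMSO, 836087.5 with BaP, 825587 with CSC and 753702.5 with NNK.

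MUC16 was the member for which a genotype difference depended on treatment. In CDKN2A against GFP, the log2 difference was -1.56 with DMSO (adjusted p = 0.0263, 37.2% of all genes called), -0.66 with CSC (adjusted p = 0.458), 1.63 with BaP (adjusted p = 0.162) and -2.27 with NNK (adjusted p = 0.00244, 28.1% of all genes called), by limma-voom with Benjamini-Hochberg adjustment. The moderated F test of the interaction gave F = 6.75 with an adjusted p of 0.0418, and 1 of 8 members and 0.841% of all genes were called in it. No other member was called in any of the 10 interaction tests. Leaving out any replicate number ended the call of MUC16.

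Over the 4 treatments, MUC16 was lower in CDKN2A than in GFP (log2 -1.07, adjusted p = 0.00818), in FAT1 than in GFP (-0.71, adjusted p = 0.0498), and in NRG1 (-1.14, adjusted p = 0.0101), PIK3CA (-1.74, adjusted p = 1.46e-05) and FGFR1 (-0.85, adjusted p = 0.0434) than in HcRed, by limma-voom with Benjamini-Hochberg adjustment. The reads were 69 in GFP, 29 in CDKN2A and 38 in FAT1, and 63 in HcRed, 27 in NRG1, 21 in PIK3CA and 35 in FGFR1. The FAT1 and FGFR1 calls were near the threshold, and each was kept under at most 5 of 12 other settings. The PIK3CA call was kept under every other setting run. The CDKN2A call was lost without the DMSO or the NNK samples and without replicate 2 or 3, and the NRG1 call without the CSC samples and without replicate 1 or 3.

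MUC20 was the member that stood out in the CDKN2A line. With DMSO it was at 6.16, 6.15 and 6.31 CPM in CDKN2A and at 0, 0.96 and 2.33 CPM in GFP. With NNK it was at 11.4, 13.2 and 7.94 CPM against 0, 1.88 and 2.92 CPM, with CSC at 5.57, 3.91 and 4.56 against 0.965, 1.33 and 2.03 CPM, and with BaP at 14.5, 4.24 and 7.91 against 4.8, 1.87 and 0 CPM. The groups did not overlap with DMSO, CSC and NNK, and overlapped with BaP. Over the 4 treatments 92 reads in 12 CDKN2A samples stood against 17 in 12 GFP samples, a log2 difference of 2.09 (SE 0.34, adjusted p = 1.77e-07 by limma-voom with Benjamini-Hochberg). Reads of the overlapping transcript MUC20-OT1 could be among these and were not counted apart. The other 6 lines held between 7 MUC20 reads in NRG1 and 22 in HcRed. NRG1 was called lower than HcRed (log2 -1.25, adjusted p = 0.0482, same test), a call kept under 5 of 12 other settings.

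**Figure D4:**
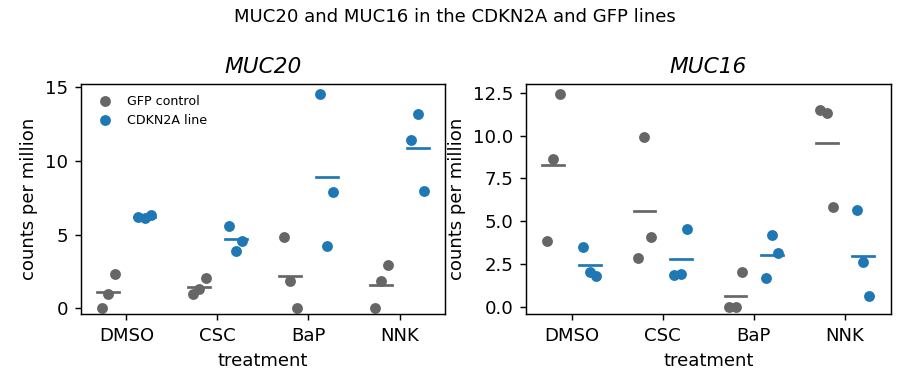
MUC20 (left) and MUC16 (right) in CPM (y axis) in the CDKN2A and GFP lines under each treatment (x axis); points are samples and short lines are means of 3 samples. The MUC20 samples of the 2 lines overlap with BaP and not with DMSO, CSC or NNK, while MUC16 with BaP reaches 4.24 CPM in CDKN2A and 2.03 CPM in GFP.

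MUC4, whose gene lies beside MUC20, had 59 reads in all, of which 18 were in CDKN2A, 9 in GFP and 1 in FAT1. It passed the filter in 1 of the pooled genotype comparisons, CDKN2A against GFP, where the log2 difference was 0.52 with a 95% interval from -0.36 to 1.4. In CDKN2A with DMSO it was at 2.64, 2.05 and 1.8 CPM against 0, 0 and 0.775 CPM in GFP.

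Genes within 5 Mb of the tested members were examined after the values were seen, and neighbouring genes are not independent of each other. The 3 cases described were those in which most neighbours were called in the direction of a called member. In CDKN2A against GFP, 45 genes within 5 Mb of MUC20 on chromosome 3 were tested. Of these 34 rose and 0 fell, with a median log2 difference of 0.64 against 0 over all genes, where 4222 of 14383 genes rose and 28.3% fell. Around AQP3 on chromosome 9, 73 neighbours were tested in the same comparison, of which 2 rose and 52 fell, with a median of -0.68 beside the AQP3 value of -0.57. Around SLPI on chromosome 20, in GFP against HcRed, 52 of 70 neighbours fell and 1 rose, with a median of -0.46 beside -2.56 for SLPI, where 22.8% of all genes fell. PI3 shares that stretch. Elsewhere the signs of member and neighbours were mixed. WFDC2, in the same stretch, was at 0.61 in GFP against HcRed beside a neighbour median of -0.46. In CDKN2A against GFP, LCN2 was at 0.85 beside -0.19, while SLPI shared the sign of its neighbours, at -0.69 beside -0.29. None of these member differences was called.

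In the overexpression arm the median of the genes within 5 Mb of SLPI was 0.09 in FGFR1, -0.18 in NRG1, 0.24 in PIK3CA and 0.38 in NRF2. The SLPI differences were -1.62, -1.45, -1.16 and -0.15. Neighbours that rose were 13 of 70, 2 of 68, 36 of 70 and 48 of 73, and 2, 15, 2 and 1 fell. Over all genes, 1040 of 14347, 832 of 14210, 2008 of 14391 and 1484 of 14242 rose. The shares of all genes that fell were 6.23%, 4.91%, 13.8% and 11.2%. For AQP3 the neighbour medians were 0.08 in NRG1 and 0 in PIK3CA, beside -1.23 and -1.38. The part of these neighbourhoods in the differences of the members was not tested, and DNA copy number was not measured here.

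**Figure D5:**
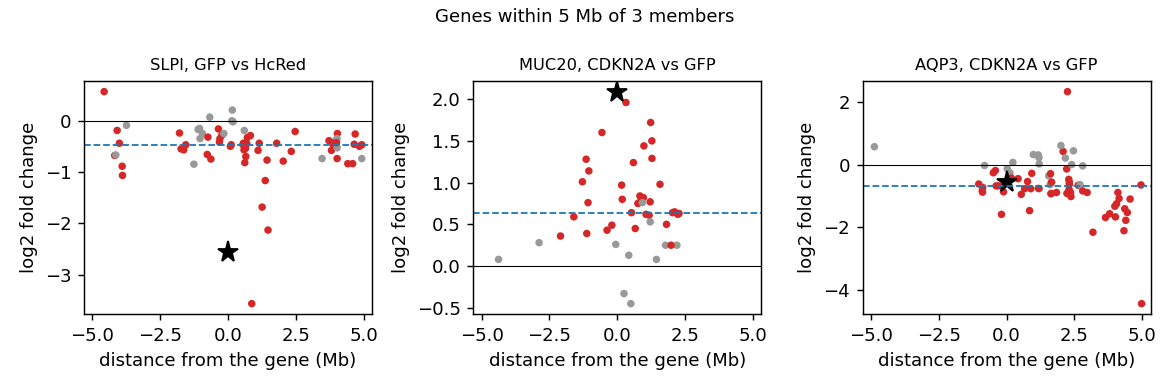
Log2 fold change (y axis) of genes within 5 Mb of SLPI, MUC20 and AQP3 by their distance from it (x axis, Mb), in the comparison named above each panel; red points passed an adjusted p of 0.05, the star is the member and the dashed line the median of its neighbours. MUC20 and SLPI lie beyond the medians of 0.64 and -0.46, while AQP3 lies near the median of -0.68.

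The genes whose pattern over the 32 combinations was most like a member were listed for the 3 members with a mean count of at least 10, among 10061 genes compared. For SLPI they were METTL8 (r 0.86), NCOA3 (0.84) and PTPN1 (0.83), of which NCOA3 and PTPN1 lie on chromosome 20, as SLPI does. For AQP3 they were NOTCH3 (0.89), a Notch receptor, FXYD3 (0.84) and CDKN1C (0.82), and for MUC1 they were OBSL1, FGFR1 and BIN1 (0.71 each). FGFR1 is the gene overexpressed in the line with the highest MUC1. These correlations are over means of combinations that share lines, and are given with no test.

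The wider families were mostly too low to follow. Of 13 other mucins 2 passed the mean count filter, of 11 other CEACAM genes 1, of 12 other aquaporins 1, and of 13 other WAP domain genes 0. Of 28 other antimicrobial and innate defence genes, 10 were tested against DMSO over all genotypes: 5 rose and 2 fell with CSC, 3 rose and 2 fell with BaP, and 4 rose and 2 fell with NNK, where 55.1%, 51.0% and 51.8% of all genes were called. CSTA (cystatin A), a cysteine protease inhibitor of squamous epithelia, was lower with each carcinogen, from a mean of 55.2 CPM with DMSO to 35.8 with CSC, 38.3 with BaP and 38.8 with NNK. CSTB, its relative cystatin B, was at 73.1 CPM with CSC against 54 with DMSO (log2 0.44, adjusted p = 3.35e-10 by limma-voom with Benjamini-Hochberg). The values and counts of these defence genes are without the GC content and exon length correction.

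Between the control lines, C3, the central complement component, was at 1.13 CPM in GFP and 25.6 CPM in HcRed (log2 -4.07, SE 0.32), and fell in NRF2 to 9.9 CPM (log2 -1.33, SE 0.18), where SLPI and PI3 were not called. DUOX1, a hydrogen peroxide source of the airway surface, was at 76.9 CPM in GFP and 43.8 CPM in HcRed (log2 0.81, SE 0.09). It was at 37.4 CPM in CDKN2A and 43.5 in FAT1, lower than in GFP (log2 -1.01 and -0.77). The means of both knockout lines were thus not above that of HcRed, and GFP was the high line. Of 26 transcription regulators of secretory genes, such as ELF3, KLF4 and NF-kB subunits, 22 were tested against DMSO, and 13 rose and 1 fell with CSC, 15 rose and 0 fell with BaP, and 10 rose and 1 fell with NNK, beside the same 55.1%, 51.0% and 51.8% of all genes called. Without the GC content and exon length correction, the median log2 difference of these regulators was 0.3, 0.39 and 0.24, against 0, 0.01 and 0 over all genes. A shift of this list was not tested.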

How the data were processed

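The authors trimmed adapters with cutadapt 1.12, aligned the single-end SFL reads to hg19 with STAR 2.5.2b and used featureCounts on RefSeq gene models; the strand setting was not given in the sources used here. The deposited values are raw counts per gene, 1 file per sample, with no normalization. Each of the 95 samples was grouped by the genotype, treatment and replicate number in its label. The depth of 287446 to 2116383 counted reads means that 3 reads equal 1.42 to 10.4 CPM, and intervals and floors cover counting error only.

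Counts were scaled by TMM in edgeR 4.0.16 under R 4.3.3 and compared with limma 3.58.1 (voom, 2-sided, Benjamini-Hochberg over every gene whose counts averaged more than 1 per fitted sample, threshold 0.05). Models held genotype as a term for carcinogens, chemical as a term for genotypes, no other term within a treatment or a line, and 32 group means for the interactions. Levels are TMM-scaled CPM, with a prior count of 2 on the log2 scale. The alternatives tried included DESeq2 1.42.0 (no independent filtering), its size factors, the quasi-likelihood test of edgeR, other filters, a fit of all 95 samples, the replicate number as a block, a loess correction (span 0.3) for GC content and exon length, and leaving out replicates, lines or treatments. Annotation matched 24309 of 27978 symbols (86.9%). Test code was tested on simulated data.

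All 10 members are named. Other genes are named as targeted genes, as at most 3 called genes per list and comparison with the largest change and a mean count of at least 10, or as the 3 genes most like a member. SPRR1B levels, KRT13, ITGB4, NGFR and the secretory cell markers with a mean count under 10, including those at 0, were named beyond that rule. They were chosen after their values were seen. The members and lists were chosen with earlier results of these data known. No library pair was a duplicate by a chi-square test of counts within combinations (94 pairs). Samples were not treated as paired by replicate number: in 0 of 52 comparisons did every same-numbered pair correlate above 0.1. The mean correlation of same-numbered samples ran from -0.0232 to 0.0583 over these comparisons. This cutoff cannot exclude a weak pairing.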

Additional observations from a re-analysis of the deposited data

Results flagged for a closer look

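The difference of MUC16 between the CDKN2A and GFP lines depended on the chemical, by a test of the difference itself (interaction of genotype and chemical, limma-voom, moderated F = 6.75, adjusted p = 0.0418 by Benjamini-Hochberg). The log2 difference, CDKN2A minus GFP, was -1.56 with DMSO, -0.66 with CSC, 1.63 with BaP and -2.27 with NNK. With BaP the value rests on 7 reads against 1. The adjusted p ran from 0.0408 to 0.278 over the other settings, and the call was lost with edgeR's quasi-likelihood test and without any of the 3 replicate numbers.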

How the results depend on the processing

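No called value changed sign under any setting run. Of 61 called single values, 24 stayed past the threshold in every other setting in which they were tested, among them SLPI and PI3 in FGFR1, NRG1 (over the 4 treatments), PIK3CA (over the 4 treatments) and GFP against HcRed, MUC20 in CDKN2A, and MUC1 with NNK over all genotypes. MUC20 in CDKN2A, and PI3 in FGFR1, NRG1 and GFP against HcRed, were not tested at a mean count of at least 10. Another 147 sign changes were among values not called in the main fit. A fit without the 9 libraries under 500000 counted reads was added after seeing the data.

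Counts of members called moved as follows. With a mean count of at least 10 (3 members tested in most comparisons) the count went from 4 to 2 for BaP against DMSO, 1 to 0 for CSC against BaP, 2 to 1 for CSC against NNK and for BaP against NNK, 2 to 1 for FAT1, 3 to 1 for CDKN2A, 5 to 2 for FGFR1 and for NRG1, and with DMSO alone from 2 to 0 for CDKN2A and 2 to 1 for FGFR1 and GFP, and from 1 to 0 for the interaction. With the GC content and exon length correction it was 1 for each carcinogen against DMSO, for CSC against NNK and for FAT1. With no filter beyond 1 read it was 4 for NNK and 1 for CSC against NNK. With DESeq2 it was 1 for CSC against NNK and for FAT1, and with DMSO alone 0 for CDKN2A and PIK3CA and 1 for NRG1. With edgeR it was 1 for CSC against NNK, 1 in place of 0 for FAT1 with DMSO, and 0 for the interaction. With all 95 samples in 1 fit it was 1 for FAT1 and 1 for NRG1 with DMSO. CSC against NNK gave 1 without GFP, NRF2, NRG1, PIK3CA or the shallow libraries and 0 without FGFR1, CSC against BaP gave 0 without GFP, FAT1 gave 1 without DMSO, CSC or NNK, and NRG1 gave 3 without CSC. The cause of these shifts was not tested, except that the stricter filter tests fewer members. The number of all genes called moved as well. With DMSO alone, DESeq2 took it from 287 to 72 for NRG1, 1228 to 460 for PIK3CA and 5408 to 3402 for CDKN2A. Also with DMSO alone, edgeR took it from 3752 to 3828 for FAT1. A mean count of at least 10 took it from 265 to 292 for FGFR1 with DMSO.

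Leaving out each replicate gave 2 to 3 for CSC, 3 to 4 for BaP, 1 to 3 for NNK, 0 to 1 for CSC against BaP and against NNK, 1 to 2 for BaP against NNK, 9 to 13 for the 12 calls within lines, 1 for FAT1, 2 to 3 for CDKN2A, 1 for NRF2, 3 to 4 for FGFR1 and NRG1, 4 to 5 for PIK3CA, 3 for GFP and 0 for the interaction. With DMSO alone it gave 0 to 1 for FAT1, 1 to 2 for CDKN2A, 0 for NRF2, 2 for FGFR1, 1 to 3 for NRG1, 1 to 2 for PIK3CA and 2 for GFP. Calls over all genes changed too. With DMSO alone and without HcRed replicate 1 they went from 287 to 167 for NRG1 and from 1228 to 821 for PIK3CA. Without FAT1 replicate 2 they went from 3752 to 3269 for FAT1.

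The labels give samples of the same replicate number nothing else in common. With the number as a block, 48 of 50 called values kept their call and 2 did not, MUC16 for CSC against NNK and for FGFR1 against HcRed. The members called then went from 2 to 1 for CSC against NNK and from 0 to 1 for FAT1 with DMSO. Depth limits MUC4, CEACAM6, LCN2 and PI3 in the CRISPR arm, where single reads set the values.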
